A study of Mus musculus with 6 samples.

Results

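The constitutive proteasome subunits are the genes of the protease that every cell uses to break down ubiquitin-tagged proteins. Here they were taken as all rows of the expression table whose symbol is Psm followed by a letter from a to g and a number, together with the assembly factor Pomp, leaving out the inducible catalytic subunits Psmb8, Psmb9 and Psmb10. A total of 45 of the 16426 rows met this rule. Of these, 44 reached 1 FPKM (a fragment count divided by transcript length and by library size) in at least 3 libraries and were tested among 10804 genes. The member below that limit was Psmb11, a catalytic subunit of the thymus, at 0.25 to 0.43 FPKM. The lowest value of any tested member in any library was 6.94 FPKM, for Psmg3, so none passed through one group alone. Psma8, the testis α subunit, was not analysed here.

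The cells were 4T1-LM3, a mouse mammary carcinoma line. One group of 3 samples received conditioned medium (CM), the medium left after donor cells have grown in it, from matrix fibroblasts (MFs) described as Tdo2high. The other group of 3 received a control CM whose cell source is not given in the labels. No dose, time or added allele is given for either group. Tdo2 encodes tryptophan 2,3-dioxygenase, an enzyme that starts the conversion of tryptophan to kynurenine.

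The proteasome has a barrel-shaped core particle (20S) made of outer rings of α subunits (Psma genes) and inner rings of β subunits (Psmb genes). Psmb5, Psmb6 and Psmb7 carry the active sites, and interferon-induced Psmb8, Psmb9 and Psmb10 can replace them. A regulatory particle (19S) caps the core: its ATPases (Psmc genes) unfold the substrate, and its other subunits (Psmd genes) bind and remove ubiquitin. Activators (Psme genes) can cap the core instead, and chaperones (Psmg genes, Pomp, Psmd5, Psmd9 and Psmd10) assist assembly. The transcription factors NRF1 (Nfe2l1) and NRF2 (Nfe2l2) are known to act on proteasome genes through antioxidant response elements (AREs).

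The total FPKM of a library was 438603 to 447415, and read depth is unknown. Across tested genes, log2(FPKM + 1) correlated at r = 0.997 to 0.998 within a group and 0.996 between groups, and no library stood apart. The keratins Krt8 and Krt18 and vimentin were abundant, at a summed 1828 to 1956 FPKM. Of the 8 fibroblast markers fixed for this purpose, 6 were in the table, and their sum was 80.5 to 82.3 FPKM with control CM and 80.7 to 82.7 with Tdo2high CM. Col1a1, Col1a2 and Lum were below 1 FPKM everywhere, whereas Pdgfra, Pdgfrb and Dcn were expressed with either medium. Of these, Pdgfra rose (log2 fold change 0.17, adjusted p = 0.00518 by limma) and Dcn fell (-0.48, adjusted p = 0.00114), and their part in the results was not tested. Of 6 leukocyte markers 4 were in the table, at a sum of 0.09 to 0.13 FPKM with control CM and 0 to 0.06 with Tdo2high CM, and 2 of 3 endothelial markers, at a sum of 0.05 to 0.12 FPKM. In bulk RNA, fewer cells of a type and less RNA per cell cannot be told apart. Nothing in the labels tells whether the samples of one group came from separate cultures, so the spread behind each p-value may be technical.

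The proteasome genes moved little, and most of what they did was upward. With Tdo2high CM, 3 of the 44 members rose and 0 fell at an adjusted p under 0.05 by limma, against 3.35% higher and 4.06% lower (7.41% in all) among all 10804 tested genes. The 3 that rose were Psmg1, a chaperone of core assembly, Psmb7, the catalytic β2 subunit, and Psmd1, a scaffold of the regulatory particle. At an unadjusted p under 0.05, 12 members were higher and 1 was lower, against 9.68% and 14.1% of all genes. The log2 fold change was above 0 for 32 of the 44 (72.7%), against 43.6% of all genes. In 11 members every Tdo2high CM library lay above every control CM library, and in 2 every one lay below, against 11.6% and 17.5% of all genes. The members' median log2 fold change was 0.032, against -0.014 for all tested genes, and the members ran from -0.08 (Psme2) to 0.19 (Psmg1). In simulated data with 200 changed genes drawn from all 10804, 14% of those changed by 1.1-fold and 60.9% of those changed by 1.2-fold were recovered. These rates cover genes of all levels and were not measured for the members, whose median was 76.9 FPKM against 14.2 for all tested genes.

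**Figure D1:**
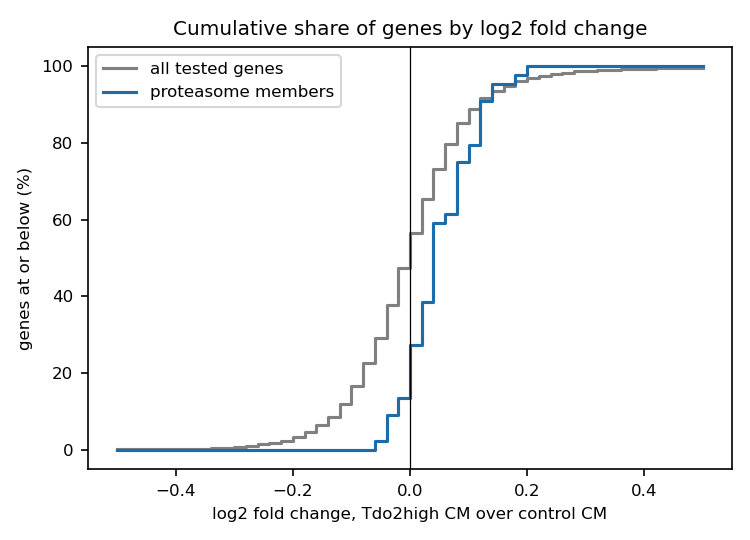
Share of genes (y axis, percent) with a log2 fold change at or below the value on the x axis, for all 10804 tested genes (grey) and the 44 proteasome members (blue). At 0 the grey line stands at 56.4% and the blue line at 27.3%.

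Scaling moved these counts, and most members stayed above 0 under each scaling. As TPM, 30 members were above 0, against 39.2% of all genes. On that scale 9 members lay wholly above the control libraries and 3 wholly below, against 9.7% and 19.7% of all genes, whose median log2 fold change was -0.024. With libraries scaled by the median of ratios, 34 were above 0, against 49.0% of all genes. There 13 lay wholly above and 1 wholly below, against 14.2% and 14.6%, beside a median of all genes of -0.0018. Over all genes, 362 were called higher and 439 lower on deposited FPKM, 320 and 505 as TPM, and 434 and 369 by the median of ratios. The more frequent direction of call over all genes thus depended on the scaling. Together the 45 members in the table took 0.890 to 0.893% of all FPKM in the control libraries and 0.903 to 0.917% in the Tdo2high libraries. The groups did not overlap. This sum includes activators and assembly factors but not Psmb8, Psmb9 or Psmb10.

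Psmg1 forms a heterodimer with Psmg2 that helps the α ring to close. With control CM the Psmg1 libraries held 18.25, 18.20 and 17.60 FPKM, and with Tdo2high CM 20.23, 20.52 and 21.35. All Tdo2high libraries were above all control libraries, with a gap wider than either group's spread. Its means were 18.0 ± 0.362 and 20.7 ± 0.581 FPKM (SD, n = 3 per group), a log2 fold change of 0.19 ± 0.04 (SE) on the log2(FPKM + 1) scale, at adjusted p = 0.0133 by limma. Without Tdo2high CM replicate 3 the adjusted p was 0.054, and in the other 13 alternatives the call held, with a lowest adjusted p of 0.00956. Psmg1 lies on chromosome 16 from 95979933 to 95990960 (GRCm38).

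Psmb7 cuts after basic residues, the trypsin-like activity of the core. It held 193.48, 188.50 and 195.40 FPKM with control CM, and 204.12, 220.15 and 207.81 with Tdo2high CM. The groups did not overlap, and replicate 2 was the highest of the Tdo2high libraries. From 192.5 ± 3.56 to 210.7 ± 8.40 FPKM (SD, n = 3 per group), its log2 fold change was 0.13 ± 0.03 (SE), at adjusted p = 0.0446 by limma. This call sat at the edge of the threshold: it was lost in 10 of 14 alternatives, including TPM (adjusted p = 0.0643) and the fit without any 1 library (adjusted p = 0.0512 to 0.136). Psmb7 lies on chromosome 2 from 38588046 to 38643952.

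Psmd1, known as Rpn2, is one of the large subunits at the base of the regulatory particle and docks a ubiquitin receptor. Its libraries held 58.75, 59.65 and 60.90 FPKM with control CM, and 65.28, 65.94 and 63.50 with Tdo2high CM. Again no Tdo2high library reached down to the controls. The means were 59.8 ± 1.08 and 64.9 ± 1.26 FPKM (SD, n = 3 per group), a log2 fold change of 0.12 ± 0.03 (SE) at adjusted p = 0.0371 by limma. Its call also ended in 10 of 14 alternatives, with adjusted p = 0.0584 as TPM and 0.0575 to 0.122 without any 1 library. Psmd1 lies on chromosome 1 from 86064619 to 86139295.

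**Figure D2:**
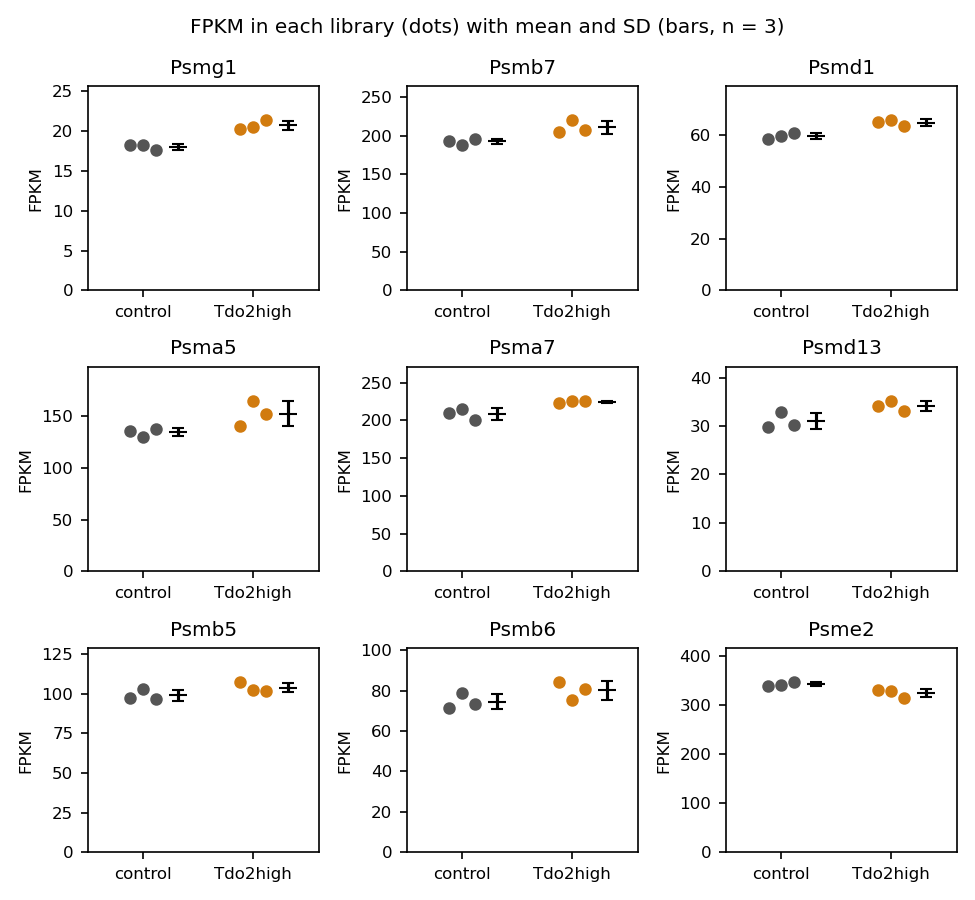
FPKM of 9 members in each library (dots, y axis from 0), with the mean and SD of each group (n = 3). Psmg1, Psmb7 and Psmd1 (top row) passed the test; Psma5, Psma7 and Psmd13 (middle) had separate groups but did not pass; Psmb5 and Psmb6 overlapped and Psme2 was lower in all 3 Tdo2high libraries.

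For Psmg1 and Psmd1, the 100 bases before the RefSeq (GRCm38.p6) gene start are shown. The set of promoter sequences used had no entry for the other called member, Psmb7. Capitals mark CCGGAA, the core sequence bound by ETS factors, on either strand. The Psmg1 stretch is chr16:95990961-95991060 on the minus strand and the Psmd1 stretch is chr1:86064519-86064618 on the plus strand.
Psmg1: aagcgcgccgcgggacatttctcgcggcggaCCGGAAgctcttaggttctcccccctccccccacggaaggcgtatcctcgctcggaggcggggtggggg
Psmd1: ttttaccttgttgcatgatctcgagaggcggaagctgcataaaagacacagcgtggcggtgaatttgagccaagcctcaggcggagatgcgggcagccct
Psmg1 held 1 such match, starting 69 bases before the gene start, and Psmd1 held 0 in the full 250 bases. Neither held the ARE letters TGACNNNGC or CCAAT, the letters bound by NF-Y, in those 250 bases.

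Levels of the core subunits, compared per transcript length, were within about a factor of 3 of each other. The highest core member was Psma7, at a mean of 216.5 FPKM over all 6 libraries, and the lowest was Psma1 at 70.7, a ratio of 3.06. The median was 130.1 FPKM for the core and 73.2 FPKM for the regulatory particle, in which Psmc2 was the highest (115.6) and the assembly factor Psmd9 the lowest (9.67). The activators Psme2 (334.7) and Psme1 (245.1), partners in the PA28 ring, exceeded every other member. The chaperones of the core were low except Pomp (74.0 FPKM), at 8.28 to 19.8 for Psmg3, Psmg4, Psmg1 and Psmg2, and the regulator Psmf1 (PI31) stood at 13.7. Within a member the span of the 6 libraries ran from 2.65% of the mean for Psmc2 to 36.3% for Psmg3.

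**Figure D3:**
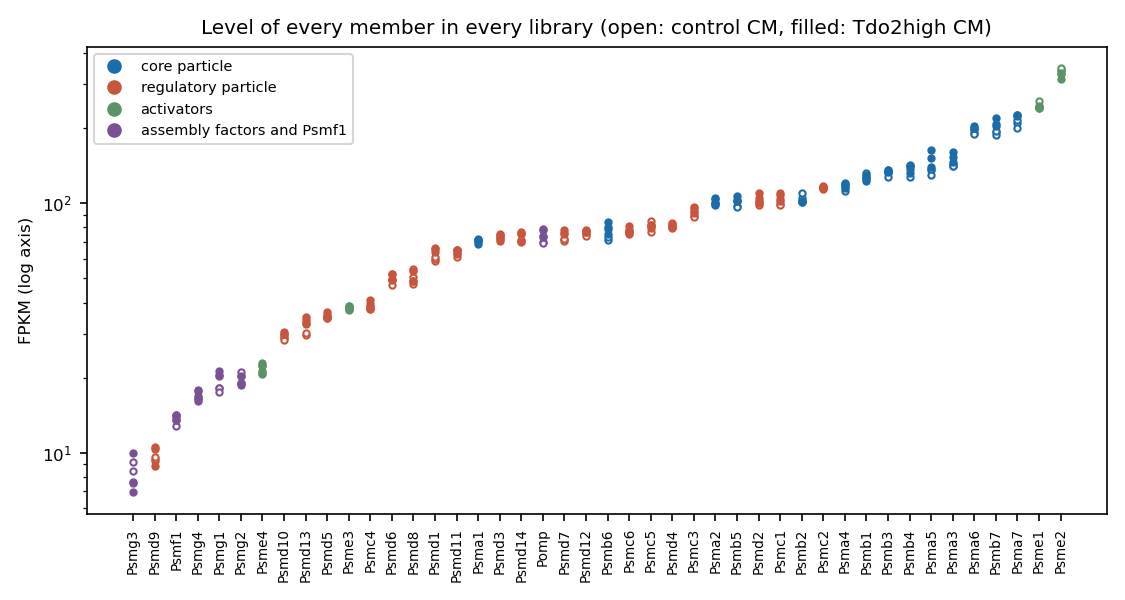
FPKM (log axis) of each of the 44 members, ordered by mean level and coloured by class, with 1 dot per library (open, control CM; filled, Tdo2high CM). The order runs from Psmg3 (8.28 FPKM) to Psme2 (334.7 FPKM), and differences between members far exceed those between media.

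In the core particle, 1 of 14 tested members rose (Psmb7) and 0 fell by limma, against 3.35% and 4.06% of all genes. At an unadjusted p under 0.05, 5 were higher and 0 lower, against 9.68% and 14.1%. The median log2 fold change was 0.05, with 11 members above 0, against 43.6% of all genes. Wholly above the controls were 5 and wholly below 1, against 11.6% and 17.5%. Among the 7 α subunits, 6 were above 0 and 4 had separate groups, namely Psma3, Psma5, Psma6 and Psma7.

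Psma5 had the largest log2 fold change of the core, 0.18 (95% interval 0.06 to 0.29, adjusted p = 0.0646 by limma). Its control libraries held 135.33, 129.83 and 137.31 FPKM and its Tdo2high libraries 140.04, 164.06 and 151.57. The Tdo2high libraries were all higher but spread widely, and without Tdo2high CM replicate 1 the gene passed (adjusted p = 0.02, over a range up to 0.179 in the alternatives). Psma7 went from 209.75, 214.92 and 200.26 FPKM to 223.29, 225.21 and 225.43, with 0.11 (adjusted p = 0.0623 by limma). Its Tdo2high libraries were tightly grouped above the controls, and it passed by the median of ratios (adjusted p = 0.0458) and without control CM replicate 2 (0.0385), with values up to 0.164 in the other alternatives. Psma3 (0.10, adjusted p = 0.109) and Psma6 (0.07, adjusted p = 0.148) did not pass.

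The other α subunits lay near 0 on the log2 scale. Psma1, which was lower by -0.023, held 70.79, 71.42 and 71.72 FPKM against 70.68, 70.98 and 68.87, and the groups overlapped. Psma2 (0.0093) and Psma4 (0.029) overlapped as well. Log2 fold changes within the α ring thus ran from -0.023 (Psma1) to 0.18 (Psma5).

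Among the β subunits, the chymotrypsin-like catalytic subunit Psmb5 held 97.38, 103.06 and 96.36 FPKM with control CM and 107.29, 102.14 and 101.96 with Tdo2high CM. One control library lay inside the Tdo2high range, and the log2 fold change was 0.07 (95% interval -0.0077 to 0.15, adjusted p = 0.26 by limma). Psmb6, the caspase-like catalytic subunit, went from 71.39, 78.61 and 73.54 FPKM to 84.20, 75.29 and 80.66, with 0.10 (95% interval -0.0013 to 0.20, adjusted p = 0.215). Control CM replicate 2 again lay above the lowest Tdo2high library. All 3 catalytic subunits were thus above 0, and Psmb7 was the one that passed.

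The structural β subunits showed no common direction. Psmb2 held 104.71, 110.36 and 101.98 FPKM with control CM and 101.24, 101.27 and 101.79 with Tdo2high CM, so it was lower in every Tdo2high library, by a narrow margin (-0.06, 95% interval -0.13 to 0.014, adjusted p = 0.313 by limma). Psmb1 (-0.019), Psmb3 (0.031) and Psmb4 (0.030) overlapped between groups.

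The inducible catalytic subunits, a list set beside the members, were abundant with either medium. Psmb8 (β5i) averaged 177.9 ± 8.02 FPKM in the control group and 173.6 ± 3.80 after Tdo2high CM, Psmb9 (β1i) 78.6 ± 5.89 and 73.5 ± 3.82, and Psmb10 (β2i) 57.5 ± 3.38 and 54.6 ± 2.85 (SD, n = 3 per group). By limma 0 of these 3 changed, against 7.41% of all genes, and 0 passed an unadjusted p of 0.05. Their log2 fold changes were -0.03, -0.09 and -0.07, each with overlapping groups. The ratio of Psmb5 to Psmb8 FPKM was 0.566, 0.551 and 0.552 with control CM and 0.609, 0.583 and 0.602 with Tdo2high CM, without overlap. That of Psmb6 to Psmb9 was 0.895, 0.938 and 1.02 against 1.08, 1.04 and 1.15, also without overlap, while that of Psmb7 to Psmb10 overlapped (3.18, 3.28 and 3.61 against 3.58, 3.98 and 4.04). A two-sided exact permutation test on the log2 ratios gave p = 0.1, 0.1 and 0.2 for these 3 pairs in the same order (0.15, 0.15 and 0.2 after Benjamini-Hochberg adjustment over the 3), where 0.1 is the smallest p that 3 samples a group allow.

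In the regulatory particle, taken as the Psmc and Psmd members, 1 of 20 tested rose (Psmd1) and 0 fell by limma, against 3.35% and 4.06% of all genes. These 20 include the chaperones Psmd5, Psmd9 and Psmd10, whereas the chaperones of the core were kept apart from the core. The 19S genes Adrm1 and Sem1 lie outside the rule. At an unadjusted p under 0.05, 5 were higher and 0 lower, against 9.68% and 14.1%. The median log2 fold change was 0.04, with 17 members above 0, against 43.6% of all genes. Wholly above the controls were 5 and wholly below 0, against 11.6% and 17.5%. The 6 ATPases had a median of 0.020, and in none of them were the media separate. Psmc1 had the highest value among them (0.08, 95% interval 0.0048 to 0.16, adjusted p = 0.186 by limma), followed by Psmc3 (0.033), Psmc6 (0.022), Psmc4 (0.017), Psmc2 (0.011) and Psmc5 (-0.0065).

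The 14 tested Psmd members had a median of 0.05. Psmd13 of the lid, the part that holds the deubiquitinase, held 29.79, 32.97 and 30.27 FPKM with control CM and 34.21, 35.15 and 33.15 with Tdo2high CM. The groups did not overlap, though by a narrow margin, and the log2 fold change of 0.14 did not pass (95% interval 0.04 to 0.23, adjusted p = 0.0818 by limma), except without control CM replicate 2 (adjusted p = 0.029, and up to 0.222 in the other alternatives). Psmd7, the partner of the deubiquitinase, was likewise higher in all Tdo2high libraries (0.10, adjusted p = 0.0697). The deubiquitinase itself, Psmd14, had 0.035 with overlapping groups.

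Other lid subunits were Psmd12 (0.039, separate groups), Psmd6 (0.07), Psmd11 (0.034), Psmd8 (-0.017) and Psmd3 (-0.019). Psmd8 held 47.58, 54.52 and 50.83 FPKM against 48.66, 48.81 and 53.57, and Psmd3 held 71.76, 73.83 and 74.97 against 74.64, 72.25 and 70.74. In both, the lowest members of the particle, the groups overlapped. Of the base, the scaffold Psmd2 had 0.07 (adjusted p = 0.231) and the ubiquitin receptor Psmd4 0.0060. The chaperones of base assembly were all above 0: Psmd10, or gankyrin (0.07, separate groups, adjusted p = 0.193), Psmd9 (0.06) and Psmd5 (0.041).

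**Figure D4:**
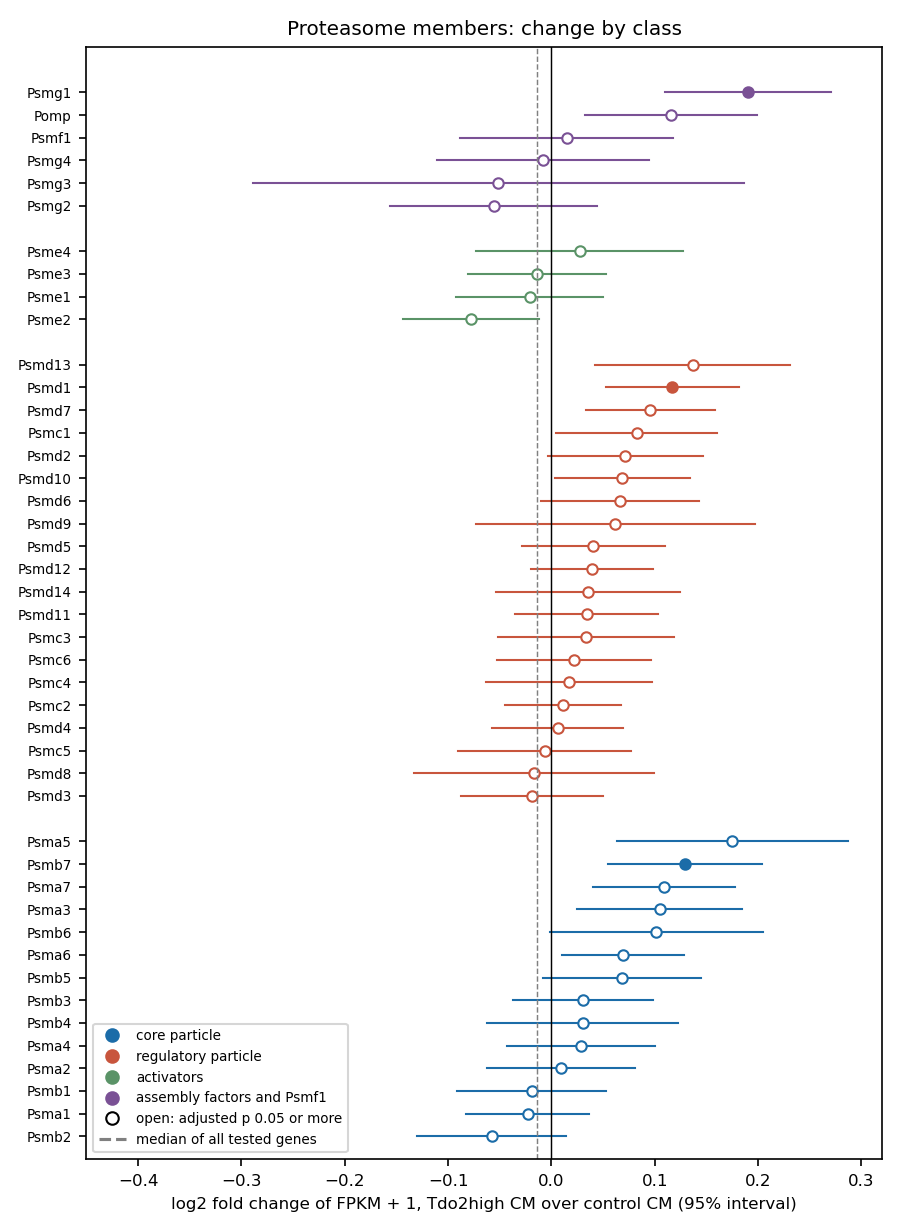
Log2 fold change (dot) with its 95% interval for each of the 44 members, grouped by class; filled dots passed an adjusted p of 0.05 by limma and the dashed line is the median of all tested genes. Core and regulatory members lie mostly right of 0, from -0.06 (Psmb2) to 0.18 (Psma5) and from -0.02 (Psmd3) to 0.14 (Psmd13).

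Core and regulatory members were next set against each other. The mean log2 fold change was 0.054 for the core and 0.045 for the regulatory particle, a difference of 0.0092. By library, the mean core level relative to the control mean was -0.0056, 0.032 and -0.026 with control CM and 0.044, 0.068 and 0.050 with Tdo2high CM. That of the regulatory particle was -0.013, 0.0086 and 0.0044 against 0.038, 0.052 and 0.044. In both classes every Tdo2high library exceeded every control library. The mean of all tested genes also separated the groups, in the other direction. It was 0.0045, -0.0002 and -0.0043 with control CM and -0.0078, -0.0164 and -0.0067 with Tdo2high CM. The core minus regulatory value was 0.0074, 0.023 and -0.031 with control CM and 0.0059, 0.016 and 0.0059 with Tdo2high CM, so the control libraries alone spanned more than the difference. Leaving out control CM replicate 3 turned its sign (-0.0060). Since the choice of members was made with results known, no p is given for these means.

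**Figure D5:**
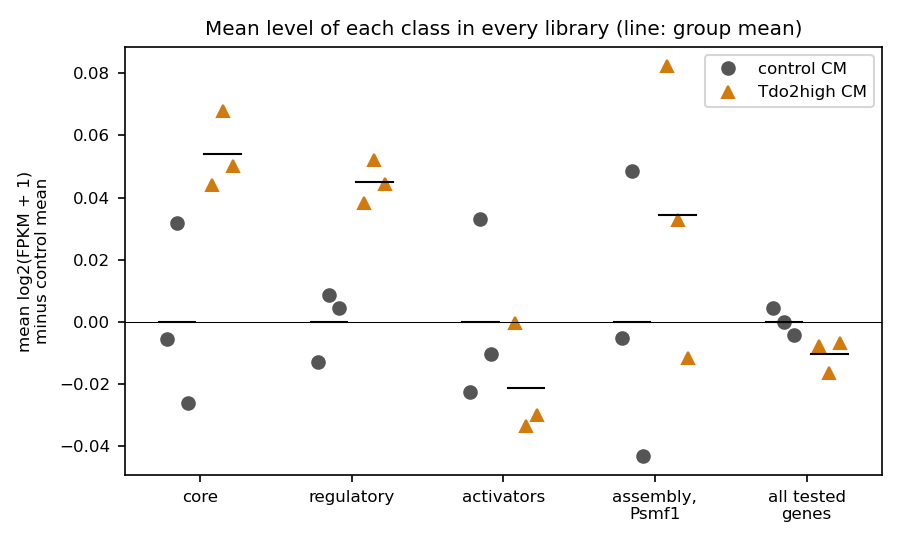
Mean of log2(FPKM + 1) over the members of each class, minus the control mean (y axis), in each control CM (circles) and Tdo2high CM (triangles) library, with group means as lines. Core (0.044 to 0.068) and regulatory (0.038 to 0.052) values with Tdo2high CM lie above all control libraries, and activators and assembly factors overlap. For all tested genes, the Tdo2high CM values lie slightly below all control libraries.

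Activators cap the core in place of the regulatory particle. Their median log2 fold change was -0.017, near the -0.014 of all tested genes. By limma 0 of 4 changed, against 7.41% of all genes. At an unadjusted p under 0.05, 1 was lower and 0 higher, against 14.1% and 9.68%. Below 0 were 3 of 4, where 56.4% of all genes lay at or below 0. Psme2 (PA28β) held 340.60, 342.72 and 347.73 FPKM with control CM and 331.42, 330.12 and 315.35 with Tdo2high CM. It was lower in all Tdo2high libraries (-0.08, 95% interval -0.14 to -0.012, adjusted p = 0.144 by limma). A near-identical copy, Psme2b, was listed at 2.53 to 7.39 FPKM and can share reads with it.

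Its partner Psme1 (PA28α) held 241.09, 257.76 and 241.99 FPKM against 244.05, 240.41 and 245.37, with overlapping groups (-0.021). The nuclear activator Psme3 (PA28γ) held 37.64, 38.76 and 38.47 FPKM against 37.66, 38.75 and 37.34 (-0.014). Psme4 (PA200) held 21.23, 22.45 and 20.98 FPKM against 22.99, 20.70 and 22.30 (0.027). None of these 3 separated the media. The mean of the activators was -0.021, against 0.054 for the core, and that difference was not tested.

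Assembly factors of the core split. Pomp, which is degraded as the first substrate of the finished core, held 73.99, 69.87 and 69.17 FPKM with control CM and 78.46, 79.10 and 73.56 with Tdo2high CM. Control CM replicate 1 lay just above Tdo2high CM replicate 3, and the log2 fold change was 0.12 (95% interval 0.03 to 0.20, adjusted p = 0.0935 by limma). Psmg2, with which Psmg1 pairs, went from 20.2 ± 0.973 to 19.4 ± 0.805 FPKM (SD, n = 3 per group) and overlapped (-0.06). Psmg3 (-0.05) and Psmg4 (-0.0081), the other chaperone pair, and Psmf1 (0.015) overlapped as well.

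Sequences before transcript starts were then compared between the particles. The set of RefSeq promoter sequences used held 40 windows for 37 of the 44 tested members. Each was the 250 bases before an annotated transcript start, searched on both strands. For 30 windows that start is also the first base of the gene's whole RefSeq extent, and for 10 it lies inside the gene. The 3 motifs were chosen after the values were known. The ETS core CCGGAA was found in 18 of 37 members (48.6%), against 27.4% of 8752 tested genes with a window and 13.6% of all 27025 genes with one. It was present in 11 of 17 regulatory members and in 2 of 11 core members, Psma5 and Psma6. For Psma6 the start behind the matching window lies 14603 bases inside the gene's extent. CCAAT was found in 6 of 11 core members (54.5%) and 5 of 17 regulatory members (29.4%), against 41.6% of tested genes. Among all 37 members it was in 12 (32.4%), against 41.6% of tested genes and 37.5% of all genes with a window. Thus the letters CCGGAA were more frequent in regulatory than in core windows, and CCAAT in core than in regulatory windows. This is a description of few genes, with no test. Some of the matches in regulatory members are shown as examples, with 10 bases on each side, the motif in capitals, on the strand of the gene.
Psmc1: gtggatgcacTTCCGGcggtggcgat
Psmd2: cgcagggcgcTTCCGGtctggaggac
Psmd6: agagacgcgaCCGGAAgtcagactgg
Psmd12: agcgggcgacTTCCGGtgcgagtgac
The matches begin 27, 25, 45 and 16 bases before the transcript start of their window, and the stretches lie at chr12:100110165-100110190, chr16:20651617-20651642, chr14:14120975-14121000 (minus strand) and chr11:107479502-107479527. The Psmd2 start used is 530 bases inside the gene's extent. Examples of core members with CCAAT are shown in the same way.
Psma2: tgactctcctCCAATcagagcaaag
Psma3: cttagctcttCCAATaccagtttca
Psma7: ctgcctgtcgCCAATgcgcgctcga
Psmb3: ggcccgccagCCAATggggaggatt
These matches begin 54, 139, 196 and 43 bases before the transcript start, and the stretches lie at chr13:14613178-14613202, chr12:70974474-70974498, chr2:180042646-180042670 (minus strand) and chr11:97703381-97703405. The Psma3 start used is 5340 bases inside the gene's extent.

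The ARE letters TGACNNNGC were found in 5 of 37 members (13.5%), against 14.1% of tested genes and 11.5% of all genes with a window. Their share was thus near the background. All 5 members are named below, with the match in capitals and up to 10 bases on each side; that of Psmb6 ends at the transcript start of its window, 33 bases inside the gene's extent.
Psmb5: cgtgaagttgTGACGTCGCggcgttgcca
Psmb6: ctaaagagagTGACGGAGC
Psmd9: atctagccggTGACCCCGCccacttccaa
Psmc6: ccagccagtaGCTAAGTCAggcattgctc
Psmd12: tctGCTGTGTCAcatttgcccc
They lie at chr14:54618024-54618052 (minus strand), chr11:70525338-70525356, chr5:123228149-123228177, chr14:45329587-45329615 and chr11:107479278-107479299. The log2 fold changes of these 5 members were 0.07, 0.10, 0.06, 0.022 and 0.039, and none of them passed the test. The called members Psmg1 and Psmd1 held no match. Letters in this window do not show a bound factor, and a window without them does not show its absence.

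Of the factors that act on proteasome genes, Nfe2l1 mRNA fell and Nfe2l2 mRNA did not pass. Nfe2l1 held 103.37, 100.14 and 99.36 FPKM with control CM and 90.46, 94.39 and 93.04 with Tdo2high CM. All Tdo2high libraries were lower, with a log2 fold change of -0.12 ± 0.03 (SE) at adjusted p = 0.0317 by limma. The call was lost in 10 of 14 alternatives, including scaling by the median of ratios (adjusted p = 0.0501) and each fit without 1 library (0.0550 to 0.107). Nfe2l2 held 73.36, 78.87 and 73.99 FPKM against 80.43, 79.19 and 79.96, higher in every Tdo2high library (0.08, adjusted p = 0.16), and passed without control CM replicate 2 (adjusted p = 0.0491, and up to 0.36 in the other alternatives).

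NRF1 protein is processed by the p97 ATPase (Vcp), the glycanase Ngly1 and the protease Ddi2. Ddi2 (0.15, adjusted p = 0.101) and Vcp (0.09, adjusted p = 0.0875) were higher in every Tdo2high library without passing, and Ngly1 (0.036) overlapped. In this list of 5 regulators, 0 rose and 1 fell by limma, against 3.35% and 4.06% of all genes. At an unadjusted p under 0.05, 3 were higher and 1 lower, against 9.68% and 14.1%.

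Of 14 genes fixed as partners of the proteasome, 13 were tested. By limma 0 rose and 0 fell, against 3.35% and 4.06% of all genes. At an unadjusted p under 0.05, 1 was higher (the shuttle factor Rad23b, 0.08), against 9.68% of all genes. Lower by that measure was 1 (Akirin2, which helps to bring proteasomes into the nucleus, -0.10), against 14.1%. The 19S ubiquitin receptor Adrm1 (0.033) and the deubiquitinases Uchl5 (0.07) and Usp14 (-0.05) did not pass. The median of the 13 was 0.011, against 0.032 for the members.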

How the data were processed

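The authors deposited 1 table of FPKM for 16426 genes in 6 libraries, per the file headers, rounded to 2 decimals. PolyA RNA was copied from random hexamers, per the labels' protocols, and the build was GRCm38, per the submitters' notes on processing. The aligner, the quantifier and the gene annotation were not stated in the labels or the header. Of 3715 ratios of low values (0.1 to 0.6 FPKM), 23.2% lay within 0.1 of a whole number when divided by the lowest value of their gene, where an even spread gives 20%, so whole reads were not recovered and no count model was used.

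Genes with 1 FPKM or more in 3 libraries were tested as log2(FPKM + 1) by limma 3.58.1 in R 4.3.3 (intensity trend, two-sided, Benjamini-Hochberg over all tested genes, threshold 0.05) and checked on simulated data (200 genes changed in each of 5 draws). Columns were matched to samples by title. Members and lists were chosen with earlier results of these data known. One list of related genes is not reported here. Every tested member is named, with values per library for called members, catalytic subunits, Pomp, activators and the 2 highest and 2 lowest core and regulatory members; Psma7 and examples from the lists were chosen after their values were seen. Positions and sequences come from RefSeq on GRCm38.p6. The alternatives changed the pseudocount (0.1), filter, scaling (TPM, median of ratios) or variance model, added a replicate block, or left out each library in turn. Figures were drawn with matplotlib 3.10.9.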

Additional observations from a re-analysis of the deposited data

How the results depend on the processing

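Across the 14 alternatives, the number of changed genes over the whole table (801) went to 394 with no filter on low values, 525 without the variance trend, and 395 to 559 without 1 library. The number of members that rose (3 of 44) was 1 as TPM, with no filter, without the trend and with the replicate block. Genes called higher over the whole table then numbered 320, 199 (of 16397 tested), 248 and 296, against 362 of 10804 in the main fit. Without 1 library, 0 to 3 members rose, beside 209 to 293 of all 10804 genes. The count was 0 members without Tdo2high CM replicate 3. There limma gave 10 of 44 members higher at an unadjusted p under 0.05, against 8.2% of all genes. No member was called lower in any of the 14. The members' median log2 fold change stayed between 0.022 (TPM) and 0.047 (without control CM replicate 2). Psmg1 kept its call in 13 alternatives, Psmb7 and Psmd1 in 4 each; Psma5, Psma7 and Psmd13 gained one in at least 1. The other 38 members were not called in any alternative, and among the 41 without a call 13 changed sign in at least 1. The labels do not say that replicate numbers pair the samples. Deviations of same-numbered libraries correlated at -0.023, -0.030 and 0.018, which shows no sign of pairing but cannot exclude it. The replicate block gave 622 changed genes. Without read depth no counting error can be given, and 3 samples a group limit the precision.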
